A study of Drosophila melanogaster with 3 samples.

Results

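The regions described here are 1436 peaks of a transcription factor ChIP-seq experiment that lie at promoters of genes with no opposite-strand protein-coding gene start just upstream. They were taken from the 5809 peaks of the authors' optimal list in the genome build dm6. A peak was kept when the protein-coding transcript start nearest to its summit lay within 500 bp, and when no protein-coding gene on the opposite strand started within 1000 bp upstream of that gene's own start. These one-direction promoter peaks make up 24.7% of the list and belong to 1268 genes. Another 1218 peaks (21.0%) lay within 500 bp of a coding start whose gene has such an opposite-strand partner, here called head-to-head promoter peaks, and 3155 (54.3%) lay at neither. All samples came from whole Drosophila melanogaster embryos of both sexes, 0 to 16 hours old, that carried a transgene for the protein ind with GFP at its C-terminus (ind-eGFP). An anti-GFP antibody was used for the immunoprecipitation, and the chromatin was sonicated. The 3 samples are biological replicates of this 1 group. No group of flies without the transgene was analysed here, and whole embryos mix cells with and without the protein, so peaks cannot be placed in a tissue.

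A core promoter is the stretch around a transcription start on which RNA polymerase II assembles. In flies, genes used in most cells often carry the DNA replication-related element (DRE, bound by DREF) or Motif 1 (bound by M1BP) near the start, whereas regulated genes more often carry a TATA box, an initiator or GAGA elements bound by the GAGA factor. Many fly genes share an upstream region with a neighbour that is transcribed the other way, and the peaks here are those whose gene has no such coding gene start just upstream. The gene ind (intermediate neuroblasts defective) encodes a homeodomain protein that helps to pattern the neuroectoderm along its dorsoventral axis, and homeodomains bind short sites with the core TAAT.

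Windows of 81 bases centred on the summit are shown for 15 members, chosen because they hold, outside annotated exons, the sequence elements on which the comparisons below turn. The sequence is that of the RefSeq dm6 assembly, written 5′ to 3′ along the direction of transcription of the gene, and the summit is the middle base. The first pair carries the DRE (TATCGATA), the next Motif 1 (GGTCACAC or its reverse complement), then come the 8-mer CAACACTG, then CAGCCCTG and then CACTGTGC, each in a pair. The last pairs carry a GAGA element and a homeodomain core (TAATTA). The final window is that of the strongest member, with a run of A or T. Capitals mark that element on either strand.
eEF1gamma, chr3R:29220090-29220170, plus strand: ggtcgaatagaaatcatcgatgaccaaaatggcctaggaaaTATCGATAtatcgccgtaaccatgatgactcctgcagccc
RpS10b, chrX:19597937-19598017, plus strand: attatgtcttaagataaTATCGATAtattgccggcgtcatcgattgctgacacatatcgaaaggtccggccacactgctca
Vha68-2, chr2L:12974108-12974188, plus strand: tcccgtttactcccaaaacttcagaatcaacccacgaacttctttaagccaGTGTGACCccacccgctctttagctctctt
muc, chr2L:7426606-7426686, plus strand: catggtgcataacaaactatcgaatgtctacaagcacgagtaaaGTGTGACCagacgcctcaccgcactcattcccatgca
RpL23A, chr3L:1668707-1668787, minus strand: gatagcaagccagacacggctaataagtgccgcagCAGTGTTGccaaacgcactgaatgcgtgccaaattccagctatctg
Phs, chr3L:15619736-15619816, plus strand: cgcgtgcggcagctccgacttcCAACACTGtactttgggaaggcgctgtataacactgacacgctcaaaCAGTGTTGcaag
Lar, chr2L:19587127-19587207, plus strand: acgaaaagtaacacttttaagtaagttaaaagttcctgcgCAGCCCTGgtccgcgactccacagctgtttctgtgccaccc
CG33995, chr2L:5043181-5043261, plus strand: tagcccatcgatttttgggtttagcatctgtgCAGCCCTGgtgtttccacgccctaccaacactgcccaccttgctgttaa
Top1, chrX:15323377-15323457, plus strand: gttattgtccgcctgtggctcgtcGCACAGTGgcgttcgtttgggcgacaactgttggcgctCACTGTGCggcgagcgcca
CG31808, chr2L:16716317-16716397, minus strand: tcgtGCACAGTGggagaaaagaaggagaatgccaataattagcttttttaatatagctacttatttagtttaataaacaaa
PlexA, chr4:1027233-1027313, minus strand: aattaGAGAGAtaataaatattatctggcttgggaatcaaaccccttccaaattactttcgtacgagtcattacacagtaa
nebu, chr3L:12843211-12843291, minus strand: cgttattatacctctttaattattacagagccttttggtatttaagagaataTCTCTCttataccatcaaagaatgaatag
Acsf2, chr2L:5342512-5342592, minus strand: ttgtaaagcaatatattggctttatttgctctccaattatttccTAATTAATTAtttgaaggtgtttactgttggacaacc
CG18549, chr3R:12449118-12449198, plus strand: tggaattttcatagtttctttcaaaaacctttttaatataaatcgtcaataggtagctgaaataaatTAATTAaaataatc
CG14100, chr3L:19590580-19590660, minus strand: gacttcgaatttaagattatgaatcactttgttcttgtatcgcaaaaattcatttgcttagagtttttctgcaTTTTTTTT

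The choice of windows fixed the element within 40 bp of the summit. The DRE began 1 base after the summit at eEF1gamma, which encodes a translation elongation factor subunit, and 23 bases before it at RpS10b, which encodes a protein of the small ribosomal subunit. At Top1, the gene for topoisomerase 1, the 8-mer stood on both sides of the summit and on opposite strands. Acsf2, named for an acyl-CoA synthetase family, had 2 overlapping homeodomain cores beginning 4 and 8 bases after the summit.

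The label of these promoters was checked against the annotation, upstream and downstream of each gene's outermost start. There it holds, by the rule, for the starts of protein-coding genes. For the 402 members nearest to another start of their gene, no opposite-strand start was sought around that start. Among the 1436 members, 97 had a non-coding gene start on the opposite strand within 1000 bp upstream, and 86 had there a start of another coding transcript that is not its gene's outermost start. A further count, 62 members, had an opposite-strand coding gene start within 500 bp downstream, inside the transcribed region. The 97 members with a non-coding partner had a median signal of 1.01 times the list median, and the other members 1.07 times.

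Most one-direction promoter peaks recurred in every replicate. A peak was called found in a replicate when a summit lay within 200 bp of its own among that replicate's 5809 strongest peaks. By this measure 1037 members (72.2%) were found in all 3 replicates, beside 70.1% of all optimal peaks, 76.9% of head-to-head promoter peaks and 66.5% of peaks at neither kind of promoter. The members' share is therefore close to that of the whole list. Of the rest, 290 members were found in 2 replicates, 107 in 1 and 2 in none. Single replicates held 84.7%, 88.0% and 91.8% of the members in replicates 1, 2 and 3. Since the optimal list was derived from these same replicates, high recurrence is partly built in.

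Recurrence followed signal. Signal is the authors' value for each peak, divided here by the median of its list (relative signal). Among the 359 weakest members (relative signal 0.541 to 0.737) 17.8% were found in all 3 replicates, and among the 359 strongest (1.86 to 23.6) all were. The sets between them gave 75.2% and 95.8%. The measure of recurrence uses the rank of the signal, so the 2 are not independent. Members missing from 1 replicate included those at Fmo-2, a flavin monooxygenase gene, and at ced-6, the gene for an adaptor in the engulfment of dying cells. Their relative signals were 1.67 and 1.44.

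One-direction promoter peaks were somewhat weaker than head-to-head ones. Their median relative signal was 1.07, against 1.24 for head-to-head promoter peaks. The difference of medians was −0.21 on the log2 scale, and it was −0.17, −0.21 and −0.20 in the lists of replicates 1, 2 and 3. An exact two-sided sign-flip permutation test over the 3 replicates gave p = 0.25. That is the smallest value 3 replicates allow, so neither this nor any other difference between the 2 promoter classes below can pass 0.05, and the replicates' lists share most of their peaks. Among the stronger 50% of the list the difference was −0.02. At the top of the range the shares were close, with the one-direction share the lower. Of the members 328 (22.8%) exceeded 2 times the list median, against 25.7% of head-to-head promoter peaks and 13% of peaks at neither kind of promoter. The shares above 5 times the list median were 3.62%, 3.86% and 1.55%.

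Summits lay upstream of the start. Of the 1436 members, 1259 had their summit upstream, 176 downstream and 1 at the start itself, and the median offset was −150 bp (negative values are upstream along transcription). In the lists of replicates 1, 2 and 3 the median was −122, −161 and −151 bp, a mean of −144.7 ± 20.3 bp (SD, n = 3). The median of head-to-head promoter peaks was −88 bp, with a mean of −83.7 ± 11.9 bp over replicates. The 25th and 75th percentiles were −264 and −65 bp for one-direction promoter peaks, against −135 and −39 bp for head-to-head ones. Summits 200 to 500 bp upstream made up 37.8% of one-direction and 11.7% of head-to-head promoter peaks (difference 25.4 ± 2.57 percentage points over replicates, exact sign-flip permutation p = 0.25). The classes differ in geometry, since between head-to-head genes a summit past the midpoint is counted for the partner gene, and the part of this in the gap was not tested. The share of summits upstream was 87.7% in one-direction and 85.1% in head-to-head promoter peaks.

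**Figure D1:**
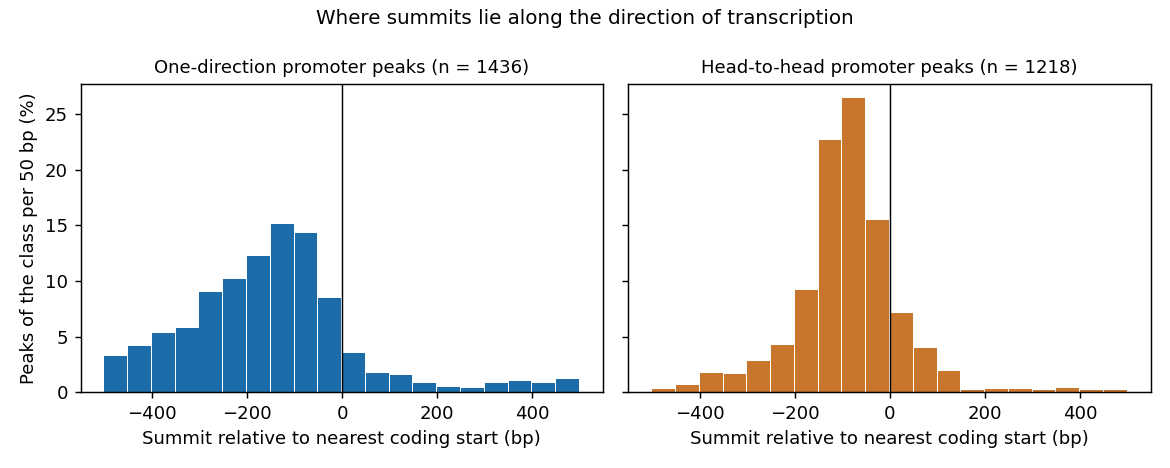
Share of peaks per 50 bp of summit position (y axis, percent of the class) against distance from the nearest coding start in bp (x axis, negative upstream) for 1436 one-direction promoter peaks (left) and 1218 head-to-head promoter peaks (right) of the optimal list. The fullest bin of the one-direction class holds 15.1% of its peaks at −150 to −101 bp and the fullest of the head-to-head class 26.4% at −100 to −51 bp, and the one-direction class has a long upstream shoulder.

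The annotation at the summits followed from this position. Intergenic sequence held 728 members (50.7%), introns 434, 5′ UTRs 180, non-coding exons 46, 3′ UTRs 42 and coding sequence 6. Of the 434 intronic summits 327 lay in an intron of the nearest gene itself, and 107 lay only in other genes. All 42 summits in a 3′ UTR lay in that of another gene. For 1034 members the nearest start was the gene's outermost one, and for 402 it was another start of the gene. The median offset was −142.5 bp at outermost starts and −179.5 bp at other starts, with a median relative signal of 1.04 and 1.17. Members in coding sequence were weak, with a median relative signal of 0.617.

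The strongest members were led by a peak 96 bp upstream of CG14100. Its relative signal was 23.6 in the optimal list and 19.2, 24.7 and 24.7 in replicates 1, 2 and 3. The second lay in an intron of ph-p, which encodes a subunit of Polycomb repressive complex 1, and was 482 bp upstream of an internal start. It had a relative signal of 14.7, and 11.4, 15.3 and 16.3 in the replicates. The third lay 77 bp downstream of a start of PNPase, the gene for polynucleotide phosphorylase, an exoribonuclease, with 12.6 in the optimal list and 10.5, 12.7 and 13.4 in the replicates. In each of these peaks replicate 1 was the lowest.

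The other 12 of the 15 strongest members found in all 3 replicates ran from 12.1 to 8.57. They include the peaks at CG1888 (12.1) and at eIF6 (11.9), whose product keeps the large ribosomal subunit from joining the small one too early. At eIF6 the replicates gave 8.08, 12.7 and 13.2. GstE13, a glutathione S-transferase gene, had 10.9, and larp, which encodes a La-related RNA-binding protein, had 10.6 with 9.18, 11 and 11 in the replicates. Tina-1 stood at 9.85 and CG31145 at 9.33. Transcription factor genes among them were Sox14 (HMG box, 9.71) and Atf3 (basic leucine zipper, 9.53), and their summits lay 248 and 210 bp upstream. The peak at amon, which encodes a prohormone convertase, had 8.69, and that at Rtnl1, which encodes a reticulon that shapes the endoplasmic reticulum, had 8.57. The peaks at CG18549 and MFS18 had 8.72 and 8.65. Of the 15, replicate 1 was lowest in 13 and highest in 0. Over all 1372 members matched in the 3 replicates it was lowest in 599 and highest in 469.

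**Figure D2:**
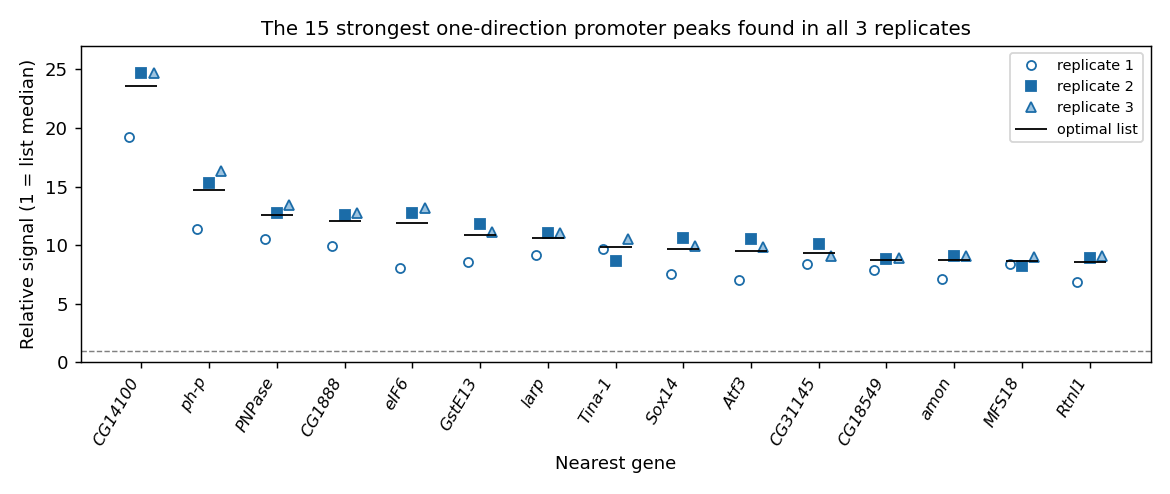
Relative signal (y axis, 1 is the median of the list) of the 15 strongest one-direction promoter peaks found in all 3 replicates, named by nearest gene (x axis). Symbols are the 3 replicates and the bar is the optimal list. CG14100 stands alone at 23.6, and replicate 1 is the lowest symbol at 13 of the 15.

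A smaller share of one-direction genes than of head-to-head genes had a peak at a start. Of 9318 protein-coding genes with a one-direction start 1268 had a promoter peak (13.6%), against 24.6% of the 4650 head-to-head genes, and 17.3% of all 13968 coding genes. In the lists of replicates 1, 2 and 3 the one-direction share was 15.1%, 13% and 13.4%, against 26.0%, 23.5% and 25% for head-to-head genes. The difference was −11 ± 0.530 percentage points (SD, n = 3, exact sign-flip permutation p = 0.25). These shares credit a peak only to the gene with the nearest start. When a gene counted as soon as any of its starts lay within 500 bp of a summit, which credits both genes of a pair, the shares were 14.8% and 42.2%. Among genes with a single annotated start they were 8.56% for one-direction and 18.6% for head-to-head genes. Both of these counts were added after the data were seen.

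Among one-direction genes, those with more annotated starts had a peak more often. The share was 8.56% of 6941 genes with 1 start, 22.4% of 1614 with 2, 37.6% of 628 with 3 or 4, and 57.0% of 135 with 5 or more. In every replicate the order was the same, from 8.0% to 9.68% at 1 start up to between 55.6% and 60.7% at 5 or more. A gene with more starts has more windows in which a peak is counted. Genes with a peak were longer, with a median of 4582 bp, against 1933 bp for genes without one. In genes with 1 start, where the number of windows is equal, the medians were 2713 bp with a peak and 1631 bp without. Of single-start genes under 1 kb 3.09% had a peak, of those of 1 to 5 kb 9.24%, of 5 to 20 kb 15.3% and of 20 kb or more 12.4%.

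The neighbourhood upstream made less difference. One-direction genes with their upstream neighbour on the same strand had a peak in 14.6% of 5096 cases, and those with an opposite-strand neighbour beyond 1000 bp in 13.7% of 2086. Genes that start inside another coding gene had a peak in 11.2% of 2127. With a same-strand neighbour at 1 to 500 bp the share was 16.0%, and it declined to 8.97% where the gap exceeded 10000 bp (18.8%, 14.5% and 16.3% against 10.3%, 7.99% and 7.80% in the 3 replicates). By chromosome the X had the largest share, 16.3% of its 1483 one-direction genes, and the large autosomal arms and chromosome 4 lay between 12.5% and 13.9%. The X also led in the lists of replicates 1 and 3, with 16.9% and 16.8%. In replicate 2 chromosome 4, with 64 genes, came first at 17.2%, against 16.3% for X. None of the 23 one-direction genes of the Y had a peak.

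Motif content set one-direction promoter peaks apart from head-to-head ones in small steps. Motifs were sought on both strands within 100 bp of the summit, and a match is only a match of letters. The DRE was present in 84 members (5.85%), against 10.4% of head-to-head promoter peaks and 0.285% of peaks at neither. In replicates 1, 2 and 3 it was 6.59%, 5.32% and 5.50% in one-direction promoter peaks, against 11.4%, 8.60% and 9.60% in head-to-head ones. Motif 1 was present in 3.48% of members, against 4.76% of head-to-head promoter peaks and 0.539% of peaks at neither. Both promoter motifs were thus seen at promoter peaks and hardly elsewhere in the list. Windows centred on all one-direction gene starts, with or without a peak, held the DRE in 5.03% and Motif 1 in 4.32%. For all coding gene starts the shares were 7.83% and 6.74%. The members' shares come from windows centred on summits, so they are not the same measure as these. In windows centred on the outermost start, one-direction genes with a peak held the DRE in 7.33% and Motif 1 in 7.33%.

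The GAGA element (GAGAGA) ran the other way. It was present in 8.98% of members, against 5.25% of head-to-head promoter peaks, with 11.7%, 9.18% and 9.30% in the replicates, against 6.28%, 5.42% and 5.16%. Peaks at neither kind of promoter held it in 11.5%, above the members' share. Windows centred on all one-direction gene starts held it in 9.49%, which is not the same measure as windows centred on summits. In windows centred on the outermost start, one-direction genes with a peak held it in 14.3%. The initiator core TCAGTT, a motif of the start itself, was present in 13.2% of members, against 10.4% of head-to-head promoter peaks. The homeodomain core TAATTA was present in 17.0%, against 20.3%, and TATAAA in 36.2%, against 40.6%. The difference had the same sign in all 3 replicates for these 6 motifs (exact sign-flip permutation p = 0.25, adjusted 0.357 over the 10 motifs sought). For the Zelda core CAGGTA (3.83% against 3.45%), the E-box CACGTG (2.09% against 2.46%), the E-box CAGCTG (11.4% against 11.2%) and the run AAAAAA (46.3% against 45.6%) the sign varied between the optimal list and the replicates or between settings.

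**Figure D3:**
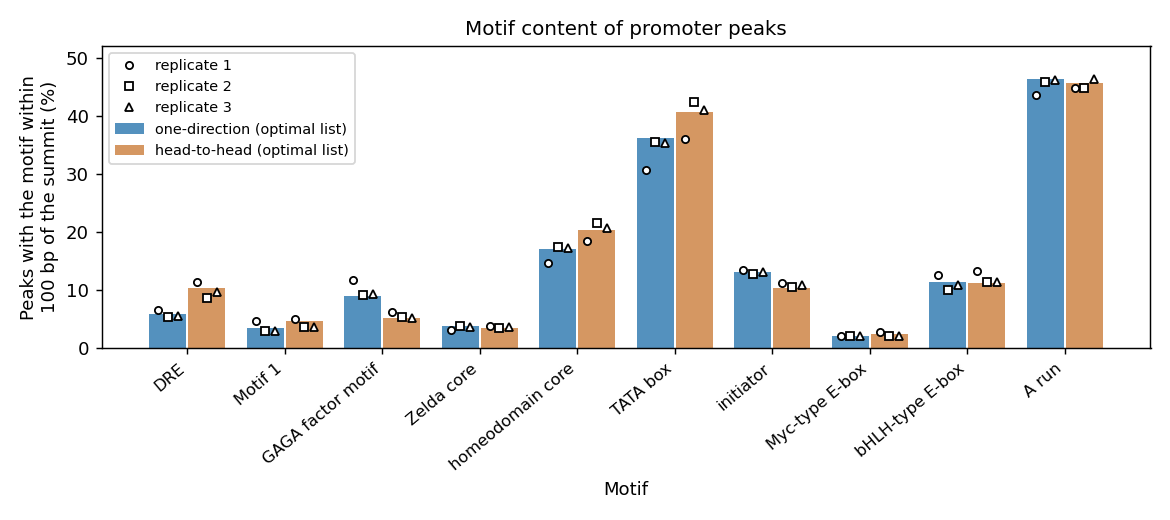
Share of peaks with a motif within 100 bp of the summit (y axis, percent) for 10 motifs (x axis). Bars are the optimal list, one-direction to the left and head-to-head to the right, and open symbols are the 3 replicates' own lists. The DRE share is 5.85% in one-direction and 10.4% in head-to-head promoter peaks, and the GAGA share is 8.98% and 5.25%.

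The homeodomain core was no more frequent at these summits than at peaks away from coding starts, which held it in 17.7%. It was present in 8.91% of windows of the same length centred on all 9318 one-direction gene starts, where base composition differs. Counted from the summit it was at 4.81% of members 0 to 49 bp downstream and at 5.36% between −100 and −51 bp. Further upstream it stayed near these values, with 4.67% between −250 and −201 bp and 4.25% between −450 and −401 bp. Downstream it fell to 1.39% in the bin 250 to 299 bp. A+T fell downstream too, from 67.1% at −80 to −61 bp to 52.6% at 240 to 259 bp. These counts were not corrected for base composition, and its part was not tested. Counted from the start it was at 0.905% between −50 and −1 bp and at 5.22% between −200 and −151 bp. Its share did not order with signal, with 16.7% of the 359 weakest members and 18.9% of the 359 strongest.

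Around the outermost start, one-direction genes with a peak differed from those without. The peak could lie at any start of the gene, and 402 members were nearest to another start. The contrast is therefore between genes rather than single promoters. In windows centred on the outermost start the GAGA element was present in 14.3% of genes with a peak and 8.73% of genes without. The E-box CAGCTG was present in 17.7% with a peak and 10.9% without, Motif 1 in 7.33% and 3.85%, and the DRE in 7.33% and 4.67%. TATAAA was present in 19.5% of genes with a peak and 30.9% without, and the initiator in 20.3% and 24.3%. With peaks taken from each replicate's own list the differences kept their sign in every replicate (exact sign-flip permutation p = 0.25 for each). The GAGA difference was 5.96 ± 0.526 and the TATAAA difference −11.7 ± 0.371 percentage points (SD, n = 3). These motif counts were not corrected for base composition. A+T around the outermost start was 55.9% in genes with a peak and 57.8% in genes without.

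The GAGA element was arranged around the start rather than the summit. In members it was most frequent at −100 to −51 bp (8.77% of members), and at −300 to −251 bp it was present in 2.37%. Counted from the summit it was at a low of 1.18% from 0 to 49 bp downstream and at 5.50% between 150 and 199 bp downstream. The initiator was at 12.6% in the bin that begins at the start and between 2.58% and 4.81% in the other bins. Motif 1 was at 3.27% in that same bin, and the DRE at 3.20% between −50 and −1 bp.

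Ranking 8-mers gave 2 kinds of sequence. Of 686 8-mers present in at least 40 members, each was ranked by its frequency within 100 bp of the summit over that in windows 1000 bp further upstream, with no test. CAGCCCTG ranked first, in 2.79% of members and 0.0696% of upstream windows. The DRE ranked 3, and letters of the DRE (ACTATCGA, ATCGATAC, ATCGATAG, AACTATCG) and of Motif 1 (AGTGTGAC, GGTCACAC) filled much of the list. CAACACTG was the most frequent of the first 10, in 6.20% of members, 6.32% of head-to-head promoter peaks and 0.919% of peaks at neither. In the replicates it was in 5.59%, 5.98% and 5.78% of one-direction promoter peaks.

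The second kind was CACTGTGC with its overlapping neighbours CACAGTGG and ACAGTGGG. CACTGTGC was present in 4.87% of members and 0.766% of upstream windows. It was present in only 2.38% of head-to-head promoter peaks, but in 5.20% of peaks at neither kind of promoter, and in 0.880% of all one-direction gene starts. Its replicate values were 3.85%, 5.39% and 5.43%. Members with it were stronger and further from the start. Their median relative signal was 1.39, against 1.06 in members without it, and 1.25, 1.32 and 1.55 in the replicates, against 1.01, 1.09 and 1.07. Their median offset was −176.5 bp, against −148 bp.

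Members with the promoter 8-mers lay closer to the start. With CAACACTG the median offset was −58 bp, against −158 bp without it, and the relative signal 1.01, against 1.07. In replicates 1, 2 and 3 the signal was 1.05, 1.02 and 0.990, against 1.01, 1.11 and 1.08. With CAGCCCTG, in 40 members, the median offset was −69.5 bp, against −153.5 bp, and the relative signal 1.12, against 1.07. In the replicates the signal was 0.993, 0.998 and 1.30, against 1.01, 1.10 and 1.07. For both 8-mers the sign of the signal difference thus varied between replicates. With the DRE the median offset was −86 bp, against −158 bp, and the relative signal 0.878, against 1.08. With Motif 1 the offset was −73 bp, against −154.5 bp, and the relative signal 0.807, against 1.08. By signal, Motif 1 was present in 6.13% of the 359 weakest members and 0.557% of the 359 strongest, and the DRE in 7.52% and 3.34%. The motif and the start are close to each other by nature, so the offset of these members partly repeats the position of the motif.

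Replicate 1 stood apart at these promoters. Among 48 members with Motif 1 that were matched in all 3 replicates, its relative signal was the highest in 34, while over all 1372 matched members it was the highest in 469 (34.2%). The medians with Motif 1 were 0.976, 0.643 and 0.704 in replicates 1, 2 and 3. With the DRE replicate 1 was highest in 36 of 80. The depth of the replicates is unknown, and its part in this was not tested.

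Sequence around the summits was rich in A and T on the upstream side. Within 100 bp of the summit A+T averaged 64.0% in one-direction and 65.6% in head-to-head promoter peaks, with 62.1%, 64.3% and 64.2% in the replicates, against 64.1%, 65.9% and 65.9%. The difference was −1.76 ± 0.178 percentage points (SD, n = 3, exact sign-flip permutation p = 0.25). Along transcription the profile of one-direction promoter peaks reached 67.1% at −80 to −61 bp and declined to 52.6% at 240 to 259 bp after it. On the upstream side it stayed at 58.9% even in the bin that begins at −500 bp, where the head-to-head profile had 53.7%. In head-to-head promoters that distance can lie inside the partner gene.

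**Figure D4:**
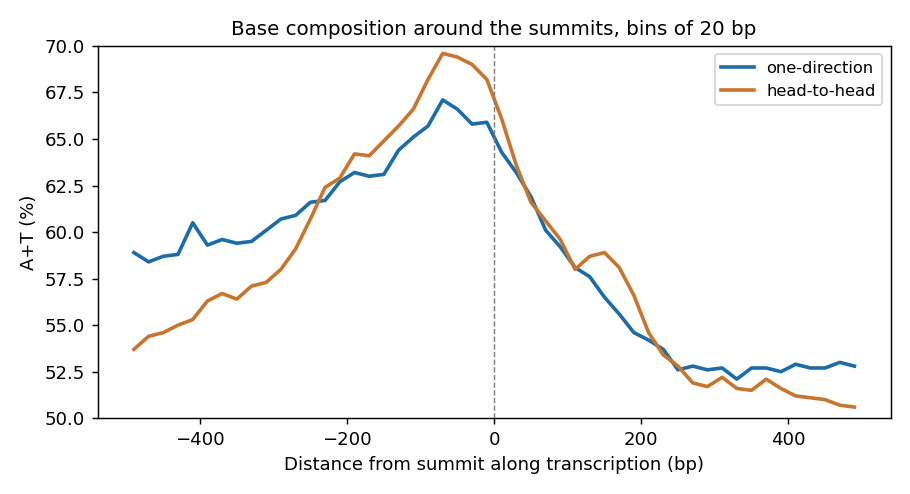
Mean A+T content in bins of 20 bp (y axis, percent, from 50 to 70) by distance from the summit along transcription in bp (x axis) for one-direction and head-to-head promoter peaks. Both profiles peak at −80 to −61 bp, at 67.1% and 69.6%, and the one-direction profile is the more lopsided, with 58.9% at the far upstream end and 52.8% at the far downstream end.

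Gene lists, chosen with earlier results of these data known, were read against the share of all one-direction genes with a promoter peak, 13.6%. Cytoplasmic ribosomal protein genes were the fullest of the 17 lists, with 19 of 36 one-direction genes (52.8%). Of the 55 head-to-head ones 31 had a peak (56.4%), beside 24.6% of all head-to-head genes. In the 3 replicates the one-direction share was 63.9%, 52.8% and 41.7%. Their peaks were of middling strength, with a median relative signal of 1.21 and a range of 0.564 to 3.00, and sat close to the start, with a median offset of −49 bp. RpL23A, for a protein of the large subunit, had 3.00 in the optimal list and 4.30, 2.74 and 2.28 in the replicates. RpS29 had 2.04, and 2.08, 1.76 and 2.07 in the replicates, and RpS10b had 1.53, and 2.48, 1.20 and 1.27.

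At these genes replicate 1 was again the highest. Of 19 ribosomal protein members matched in all 3 replicates, replicate 1 was highest in 17, replicate 2 in 2 and replicate 3 in 0, and the medians were 1.79, 0.825 and 0.783. With replicate 1 left out, counting only peaks found in both other replicates, 36.1% of the one-direction ribosomal protein genes had a member, beside 11.5% of all one-direction genes counted in the same way. The share was 36.1% without replicate 2, beside 10.9%, and 41.7% without replicate 3, beside 10.6%.

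Other lists of widely used genes had shares above 13.6% in the optimal list, from counts of 3 to 7 genes. Most of these were lower with a replicate left out, a filter that can only lower a share or leave it unchanged. Proteasome subunit genes had members at 5 of 13 one-direction genes, led by Rpn6 (1.46), Rpn11 (1.06) and Rpn12 (0.821). Insulator and boundary protein genes had 3 of 9, of which BEAF-32, whose product binds boundary elements, had 2.08. Translation factor genes had 7 of 27, with eEF1gamma at 1.98 and eIF3h at 1.78 after eIF6, and aminoacyl-tRNA synthetase genes 3 of 11, led by SerRS at 4.30. Cell cycle and DNA replication genes had 7 of 30, with Dp, the partner of E2F, at 4.90 and CycE, for cyclin E, at 2.37. Polycomb and trithorax group genes had 4 of 14, with ph-d at 0.933 far below its neighbour and paralogue ph-p. Reads from ph-p and ph-d, which are near-copies, could be shared between them depending on the authors' mapping, so these 2 are uncertain.

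Leaving a replicate out kept only peaks found in both others, so a fall by itself is built in. The share of all one-direction genes fell from 13.6% to 11.5%, 10.9% and 10.6% without replicates 1, 2 and 3. Counted in this way, aminoacyl-tRNA synthetase genes had 9.09% without replicate 1 and without replicate 3, beside 27.3% in the optimal list. That 9.09%, in a list of 11 one-direction genes, is below the 11.5% and 10.6% of all one-direction genes. A list this small cannot be told apart from them. Cell cycle and DNA replication genes had 13.3% without replicate 1 and 10% without replicate 3, beside 23.3%. Polycomb and trithorax group genes had 14.3% without any 1 of the 3 replicates, beside 28.6%. Insulator and boundary protein genes had 22.2% without any 1 of them, beside 33.3%. Proteasome subunit genes had 30.8% without replicate 1 and 23.1% without replicate 2 or 3, beside 38.5%. Translation factor genes had 18.5% without replicate 1 or 3 and 25.9% without replicate 2, beside 25.9%.

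Mitochondrial ribosomal protein genes (2 of 17, 11.8%) and respiratory chain and ATP synthase genes (7 of 50, 14%) had shares near the 13.6%, and spliceosome component genes had 0 of 7. ND-ASHI, a complex I subunit gene, was the strongest of these with 3.62. Heat shock and chaperone genes had 4 of 19 (21.1%), among them Hsp27 with a relative signal of 7.09, and 5.33, 6.96 and 8.03 in the replicates. DnaJ-H had 2.71 and Hsp26 1.43.

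Genes of the embryonic nervous system and body plan, the field in which ind acts, had shares of 10.5% to 19.6% in 4 lists. Neural patterning and neuroblast genes had 6 of 40 (15%), and between 17.5% and 22.5% in the replicates. Among them moody, for a receptor of the glia of the blood-brain barrier, had a relative signal of 6.63, numb, for a determinant of daughter cell fate, had 3.65, and E(spl)m3-HLH, a target of Notch signalling, had 2.97. The summit at moody lay in an intron of CG4313, 160 bp upstream of the start. Segmentation and Hox genes had 4 of 38 (10.5%), with bowl at 2.64, cnc at 1.88 and bcd, for the anterior morphogen, at 1.62. Neuronal differentiation and synaptic genes had 9 of 46 (19.6%), led by elav, for a neuronal RNA-binding protein, with 5.35, and 5.25, 5.16 and 5.44 in the replicates. The elav summit lay in an intron of the gene arg, 278 bp upstream. Developmental signalling genes had 7 of 39 (17.9%), with aos, for an inhibitor of the EGF receptor, at 2.62, nkd, for an inhibitor of Wnt signalling, at 1.99 and htl, for an FGF receptor, at 1.28. Their share was 33.3%, 17.9% and 15.4% in the lists of replicates 1, 2 and 3, and 30.8% with a promoter window of 1000 bp, where all one-direction genes had 16.0%. The gene ind itself has no member.

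The chemosensory receptor list and the testis, chorion and accessory gland list had no member among one-direction genes. None of the 157 one-direction chemosensory receptor genes and none of the 72 testis, chorion and accessory gland genes had a member in the optimal list or in any replicate's list. Of the 9 head-to-head genes of the testis, chorion and accessory gland list 1 had a peak (11.1%), beside 24.6% of all head-to-head genes. With an opposite-strand window of 500 bp 1.37% of the one-direction genes of that list had one, beside 14.6% of all one-direction genes.

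**Figure D5:**
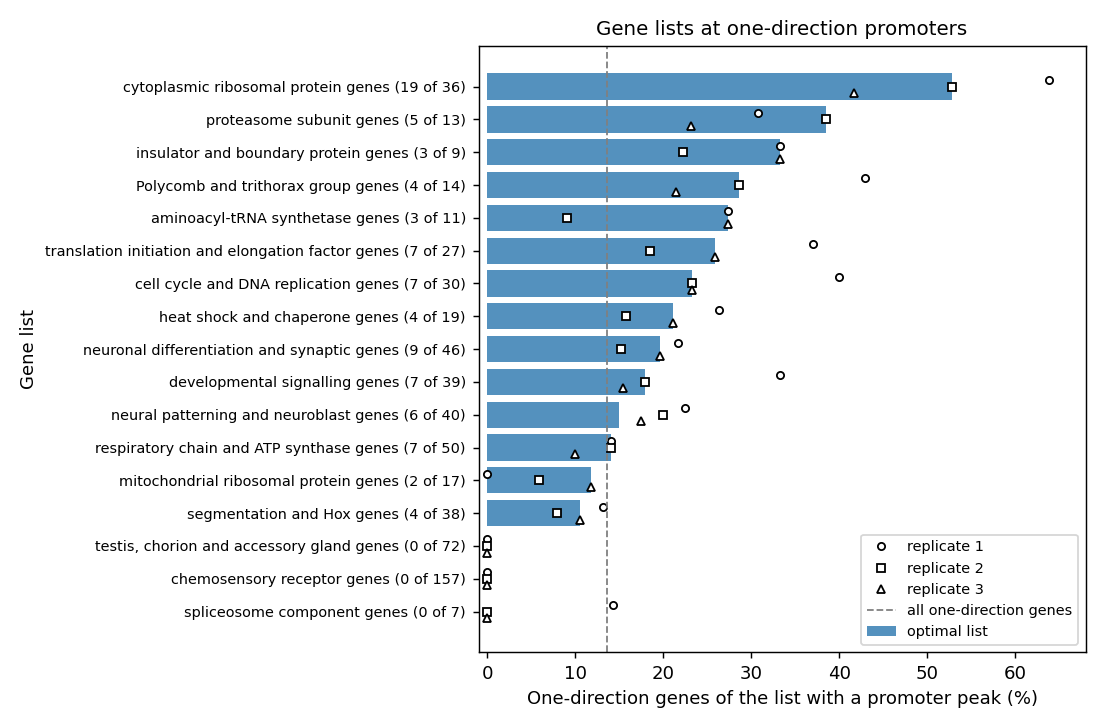
Share of the one-direction genes of each list with a promoter peak (x axis, percent) for 17 gene lists (y axis, with counts). Bars are the optimal list, symbols the 3 replicates, and the dashed line the 13.6% of all one-direction genes. Ribosomal protein genes reach 52.8% with replicates from 41.7% to 63.9%. The chemosensory receptor list and the testis, chorion and accessory gland list are at 0.

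Most genes had a single member, 1122 of the 1268, while 146 had 2 or more. Neighbouring summits of the same gene lay a median of 912 bp apart, and the closest pair 199 bp. Rtnl1 had 6, at 5 different starts over its gene, with relative signals of 8.57, 2.03, 1.59, 1.02, 4.08 and 0.603. Only the last, at the outermost start, was not found in all 3 replicates. Ptpmeg2, which encodes a protein tyrosine phosphatase, had 5, from 0.630 to 4.55, and 2 of these were 5′ UTR summits. The gene dnc, for a cyclic AMP phosphodiesterase, had 4, of which the strongest had 6.04 and 4.74, 6.12 and 6.62 in the replicates, and all 4 lay between 274 and 356 bp upstream of an internal start.

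The members closest to the thresholds ranged widely. Just inside 500 bp were CG7702 (500 bp downstream, relative signal 0.729), CG17896 (499 bp upstream, 6.91) and lectin-28C (498 bp upstream, 0.680). Just outside it were peaks at Proc (501 bp upstream, 0.663), IP3K2 (501 bp upstream, 0.821) and DopEcR (502 bp downstream, 0.693). The members whose gene had its opposite-strand neighbour just beyond 1000 bp were Nep1 (1004 bp, 0.605), CG11961 (1007 bp, 0.785) and CG44774 (1023 bp, 0.813). The head-to-head promoter peaks just short of it were at CG15465 (991 bp, 0.723), Smg5 (984 bp, 3.30) and tacc (979 bp, 2.27).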

How the data were processed

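The peak lists are those the authors deposited for dm6. Per the notes deposited with them, a relaxed list was made for each replicate from its alignment and a control (30000, 27570 and 25725 peaks in replicates 1, 2 and 3, where it is not stated whether the first list was limited in length), a pooled one (24244) from all alignments, and an optimal list (5809) from these by the irreproducible discovery rate. The aligner and caller are not given in the sources used. The signal of a peak is the deposited value, used within its list only. The deposited −log10 q-value was 4.08 in all optimal peaks and ranked nothing. Read depth is unknown, and no interval is given. Summits are 1-based. Starts came from Ensembl BDGP6.54 release 115, and sequence from the RefSeq assembly of the same build.

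Relative signal is signal over the list median. In a replicate it is the signal of the matched peak (summit within 200 bp) over the median of all optimal peaks matched there. Class values in replicates use each replicate's own 5809 strongest peaks. Means carry the SD over replicates (n = 3). The test was an exact two-sided sign-flip permutation over replicates, adjusted by Benjamini-Hochberg over 10 motifs. The members, motifs and 17 gene lists were chosen with earlier results of these data known. Genes named are those nearest the 15 strongest members found in all 3 replicates, up to 3 per list, the 3 with most members, the 3 strongest not found in all replicates, and 3 on each side of each threshold. A gene this rule names is not reported here. Any other gene and the 8-mers were chosen after their values were seen. So were the printed windows, picked by hand from the 3 strongest members per element that were found in all 3 replicates, with the element within 40 bp of the summit, no annotated exon and not on arm 2R. The software was Python (3.11.15), numpy (2.4.6), pandas (2.3.3) and matplotlib (3.10.9).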

Additional observations from a re-analysis of the deposited data

How the results depend on the processing

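No paired analysis was possible because no groups of samples are compared: all 3 samples belong to 1 group, and the promoter classes were compared within each replicate. Settings tried were promoter windows of 200 and 1000 bp, opposite-strand windows of 500 and 2000 bp, 3 other definitions of the opposite-strand start, the stronger 50% of the list, peaks found in all 3 replicates, and each replicate left out. The 3 differences between promoter classes (signal, share of genes, A+T) kept their sign in all 38 values. The signal difference was −0.02 in the stronger 50% of the list and −0.35 with an opposite-strand window of 500 bp. The number of members was 827 with a 200 bp promoter window and 783 in the stronger 50% of the list, and 1089 to 1184 without a replicate. The median offset was −94 bp with the 200 bp window. The share of members found in all replicates was 96.7% in the stronger 50%, 67.4% with summits within 100 bp, 50.3% with intervals overlapping by 50% of both, and 75.8% to 82.5% without a replicate.

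Of 140 motif differences 23 turned their sign, all for 4 motifs whose reported difference was under 1 percentage point. For the Zelda core it was −0.539 percentage points with the 200 bp promoter window, −0.179 with the 500 bp opposite-strand window, −0.141 with starts of any biotype, −0.0329 with overlapping starts moved, −0.205 in windows of 50 bp and −0.0412 in windows centred on the start. For CACGTG it was 0.0312 with the 200 bp promoter window and 0.527 in windows of 50 bp. For CAGCTG it was −0.311 with the 1000 bp promoter window, −1.84 with the 500 bp opposite-strand window, −0.914 in the stronger 50%, −0.385 in peaks found in all replicates, −0.596 to 0.396 with a replicate left out, −0.223 in windows of 50 bp and −0.760 in windows centred on the start. For AAAAAA it was −0.412 with the 1000 bp promoter window, −0.242 with overlapping starts moved, −0.285 in the stronger 50%, −0.406 in peaks found in all replicates, −0.795 to 0.528 with a replicate left out, −0.317 in windows of 50 bp and −4.28 in windows centred on the start. The causes were not tested. Of 204 list shares 71 moved by more than the SD between replicates. The ribosomal protein share lay between 27.8% (stronger 50%) and 54.5% (opposite-strand window of 500 bp). The share of all one-direction genes, 13.6% in the main setting, was 7.73% and 14.6% in these settings. It was 8.56% and 16.0% with promoter windows of 200 and 1000 bp, and 10.2% in peaks found in all 3 replicates. The unknown depth limits what can be said of weak peaks.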
